A study of Mus musculus with 5 samples.

Results

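The genes described here encode the transcription factor YY1, its relative YY2, its binding partners, and the subunits of the Polycomb and INO80 chromatin complexes. They were listed by name and complex, with earlier results of these data known. The list holds 49 of the 55421 genes in the count table: Yy1 and Yy2, 17 genes of Polycomb repressive complex 1 (PRC1), 9 of Polycomb repressive complex 2 (PRC2), 4 genes of MBT domain proteins, 13 of the INO80 complex, Bap1 and Hcfc1, and Ctcf and Rad21. Levels are given per library as CPM, the read count of a gene scaled to library depth with TMM factors.

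RNA came from whole mouse cerebella at postnatal day 14. The Yy1 cKO group (n = 3) had the genotype Pcp2 Cre/+; Yy1 fx/fx, and the littermate controls (n = 2) had Pcp2 Cre/+; Yy1 fx/+. Every animal therefore carried the Cre transgene, and the controls carried 1 floxed Yy1 copy. The Pcp2 promoter is used to direct Cre to Purkinje cells, whose axons carry the output of the cerebellar cortex, whereas the RNA was taken from all cells of the tissue. Sex was mixed. Xist stood at 1726, 1635 and 0.322 CPM in Yy1 cKO libraries 1 to 3 and at 0.645 and 2460 CPM in controls 1 and 2, so each group held a library near 0. The labels do not say whether replicates were separate litters, and p-values measure the spread between these samples only. Total counts were 17424860 to 20305705 per library. Defining cerebellar genes were abundant throughout. Calb1, a calcium-binding protein of Purkinje cells, stood at 632, 623 and 734 CPM in Yy1 cKO and at 611 and 730 CPM in controls. Gabra6, a GABA receptor subunit of mature granule neurons, stood at 599, 631 and 638 CPM in Yy1 cKO and at 433 and 490 CPM in controls. Yy1 cKO library 3 stood apart from the other Yy1 cKO libraries on the second principal component, which held 17.0% of the variance, and results that depend on it are given without it.

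YY1 is a zinc finger protein that binds DNA and can activate or repress genes. It is the mammalian relative of Drosophila Pleiohomeotic, the protein that recruits Polycomb complexes to DNA in the fly, and it is also found with the INO80 nucleosome remodeller and with the deubiquitinase BAP1. PRC2 methylates lysine 27 of histone H3 through EZH1 or EZH2, and PRC1 ubiquitinates histone H2A through RING1 or RNF2. Most PRC subunits come as small families of paralogues that occupy the same position in the complex, so that the makeup of a complex depends on which paralogue a cell makes. EZH2 is known to prevail in dividing cells and EZH1 in cells that have left the cell cycle.

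Of the 49 genes, 48 passed the filter on low counts and 17 of these differed between the groups at an adjusted p under 0.05 (edgeR quasi-likelihood test with Benjamini-Hochberg adjustment over all genes tested). The share of members called was 35.4%, and the share of all 20388 genes called was 23.4%. In Yy1 cKO cerebella 7 members rose (Pcgf5, Cbx6, Cbx7, Ezh1, Phf1, Sfmbt1 and Ino80), beside 10.7% of all genes. A further 10 members fell (Rybp, Rnf2, Pcgf3, Bmi1, Phc1, Phc2, Ezh2, Jarid2, Mbtd1 and Sfmbt2), beside 12.6% of all genes. The remaining 31 were not called. The median log2 fold change of the members, Yy1 cKO over control, was 0.04, and that of all genes was −0.0009. By size alone, without sign, the median log2 change was 0.30 in PRC1, 0.32 in PRC2 and 0.09 in INO80, beside 0.24 over all genes. The largest rise was that of Cbx7 at 2.39-fold.

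Calls depended on the controls, of which there were 2. Of the 17 called members, 6 (Bmi1, Pcgf5, Cbx6, Cbx7, Jarid2 and Phf1) were called whichever single library was left out, and 11 lost their call without at least 1 library. Without control 1, 4 members rose and 4 fell, and without control 2, 4 rose and 2 fell. Without Yy1 cKO library 3, 8 rose and 10 fell. No called member changed direction in any setting tried. Whether the libraries of the groups overlap is given below as description only. Groups of 3 and 2 libraries separate easily, and the share of all genes that separate was not computed. Scaling by library size alone moved the median of all genes to −0.079 on the log2 scale and gave 1432 higher and 3369 lower genes, against 2185 and 2577 with TMM scaling, and with it 5 members rose and 11 fell.

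**Figure D1:**
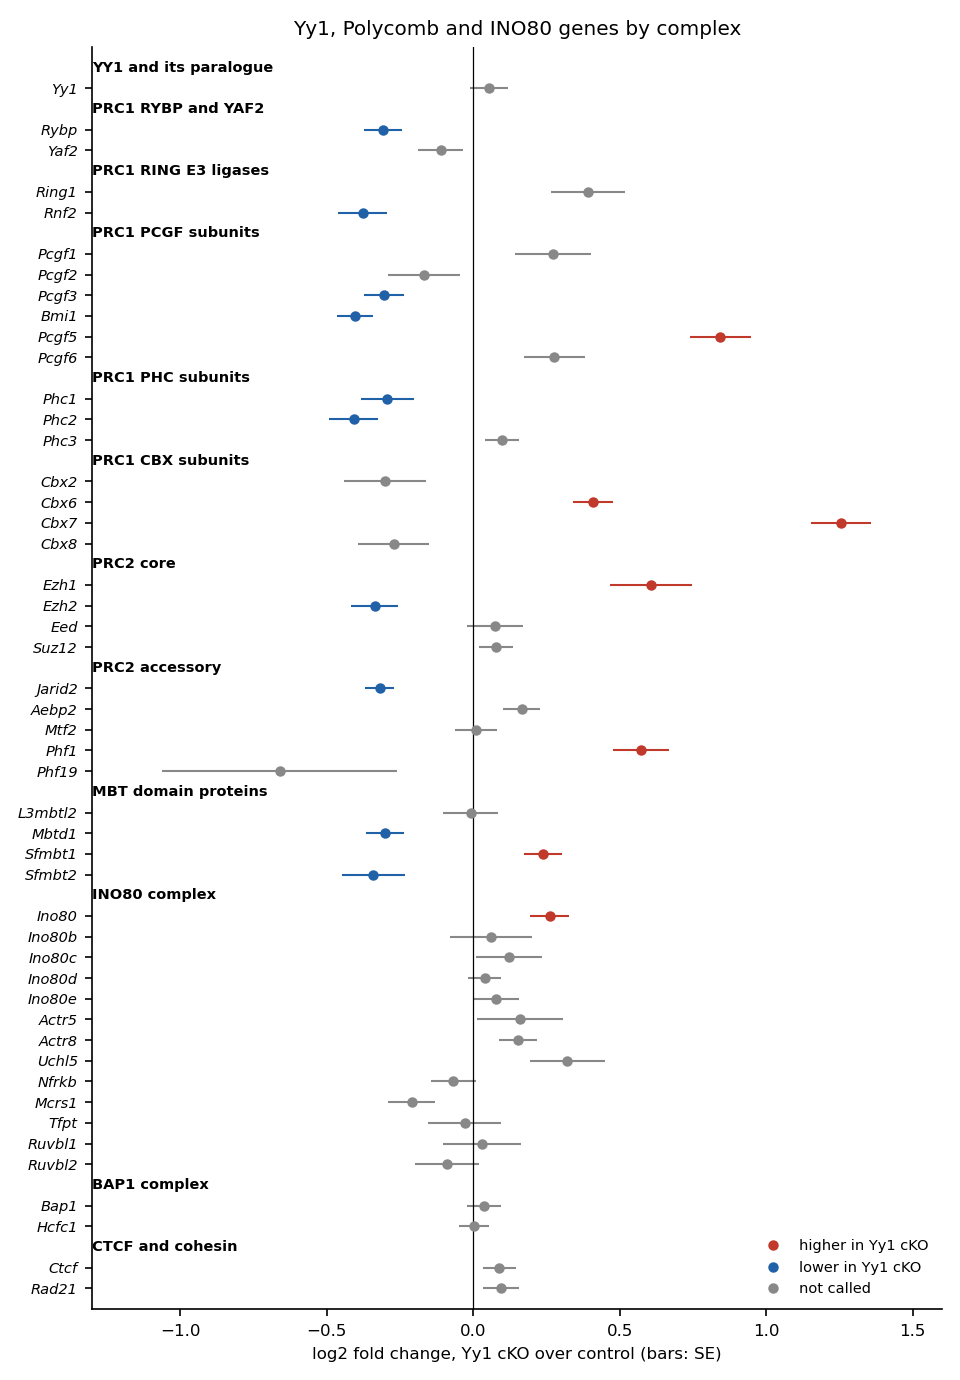
Log2 fold change (Yy1 cKO over control, horizontal axis) with its standard error for the members tested, grouped by complex, with calls at an adjusted p under 0.05 coloured by direction. PRC1 and PRC2 genes spread to both sides of 0, up to 1.26 for Cbx7, whereas INO80 genes lie between −0.21 and 0.32.

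Yy1 transcript itself was not called different in the whole tissue. Yy1 (ENSMUSG00000021264.12, GRCm38 chr12:108792973-108820148) stood at 73.4, 81.7 and 75.8 CPM in Yy1 cKO and at 74.6 and 73.7 CPM in controls. The groups overlapped, with Yy1 cKO library 1 below both controls and libraries 2 and 3 above them. The log2 fold change was 0.05 ± 0.0649 (SE; adjusted p = 0.61). The counts are per gene, so a deleted exon in Purkinje cells alone is not visible in them, and the value does not check the labels of the libraries. Yy2, an intronless relative that arose by retrotransposition, had 0 counts in all 5 libraries. All 2867 exonic bases of Yy2 lie within exons of Mbtps2 on the same strand, and how reads shared by both genes were counted is not given in the sources used here. Mbtps2, a membrane protease gene, had 25.9, 29.1 and 26.5 CPM in Yy1 cKO and 32.6 and 34.6 CPM in controls, a log2 fold change of −0.31 (adjusted p = 0.0315).

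Promoter sequences were searched for the letters of the YY1 core, AANATGGC, on both strands. RefSeq promoter windows on GRCm38.p6, each 300 bases from 250 before to 50 after the RefSeq start, were matched for 40 of the 49 members. A RefSeq start can differ from the GENCODE start behind the gene positions given elsewhere. The stretches of Jarid2, Sfmbt2 and Ezh2 printed below lie inside the GENCODE gene, downstream of its start. A gene was counted once if any of its windows held the letters. The YY1 letters were held by 10 of these 40 members (25%), beside 6.96% of 27025 genes. Those genes were all genes with a window, not filtered on their level here, whereas 48 of the 49 members passed the filter on low counts. The 2 shares are therefore of unlike sets. Among members with a window, the YY1 letters were held by 3 of 9 that fell, by 7 of 23 not called, and by 0 of 7 that rose. Ctcf and Hcfc1, whose levels were close in the groups, hold them, as do Ino80b and Ino80e. A match describes letters in this window and is neither a binding site nor a cause of a change, and the letters were chosen with results of these data known. The stretches of the 3 members that fell and the 2 of Hcfc1 are printed 5′ to 3′ on the strand of the motif, with the matched letters in capitals, because they show the same letters in genes with and without a called change.
Bmi1, chr2:18676837-18676866, minus strand: acaccggctccAAAATGGCtcggagtccgc
Jarid2, chr13:44730749-44730778, minus strand: cccttgactacAAAATGGCtatggccacgg
Sfmbt2, chr2:10372434-10372463, minus strand: agcctcattccAATATGGCatcctctctat
Hcfc1, chrX:73966315-73966344, minus strand: agaggcggctcAAGATGGCggctcccagag
Hcfc1, chrX:73966507-73966536, minus strand: aggacggtttcAAGATGGCggcttccacaa
The E2F letters TTTNNCGC were searched likewise because E2F factors act on genes of dividing cells. They were held by 5 of the 40 members with a window (12.5%), beside 5.93% of the same unfiltered genes. Ezh2 was the only member that fell to hold them, and they are shown in capitals.
Ezh2, chr6:47595009-47595038, minus strand: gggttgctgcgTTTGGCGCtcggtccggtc
The other 4 members with the E2F letters were Ino80b, Phf19 and Suz12, which were not called, and Yy2, which was not tested.

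In the PRC2 core, the catalytic paralogues changed in opposite directions. Ezh1 (ENSMUSG00000006920.14, GRCm38 chr11:101191115-101226463) stood at 55.1, 56.4 and 75.0 CPM in Yy1 cKO and at 41.5 and 40.2 CPM in controls. The groups did not overlap, and Yy1 cKO library 3 was well above libraries 1 and 2. Ezh1 averaged 62.2 ± 11.1 CPM in Yy1 cKO and 40.8 ± 0.938 CPM in controls (SD, n = 3 and 2), and it rose 1.52-fold, a log2 fold change of 0.61 ± 0.141 (adjusted p = 0.0229). Without Yy1 cKO library 3 the log2 fold change was 0.45 (adjusted p = 6.32e-05), and without control 1 or control 2 the adjusted p was 0.114 and 0.132. Ezh2 (ENSMUSG00000029687.16, GRCm38 chr6:47530139-47595341) stood at 26.4, 25.8 and 26.8 CPM in Yy1 cKO and at 33.9 and 32.6 CPM in controls. Every Yy1 cKO library was below both controls. Ezh2 averaged 26.3 ± 0.510 CPM in Yy1 cKO and 33.2 ± 0.944 CPM in controls, and it fell to 0.792 of the control level (log2 fold change −0.34 ± 0.08, adjusted p = 0.0144). Without control 1 or control 2 the adjusted p was 0.109 and 0.0759.

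Set against each other per kilobase of exon, the level of Ezh1 was 8.36 CPM per kb in Yy1 cKO and 5.49 in controls, and that of Ezh2 was 3.94 in Yy1 cKO and 4.98 in controls. The ratio of Ezh1 to Ezh2 on this scale was 1.87, 1.96 and 2.51 in Yy1 cKO and 1.10 and 1.11 in controls. On this scale, which divides by all annotated exon bases of a gene, controls had the paralogues at near equal levels. In Yy1 cKO Ezh1 made up 65.2%, 66.3% and 71.5% of their sum, against 52.3% and 52.5% in controls. Other lengths would move these levels and shares but not the difference in log2 ratio between the groups. The log2 ratio averaged 1.07 ± 0.228 in Yy1 cKO and 0.14 ± 0.0078 in controls (SD), a difference of 0.93, or 1.90-fold. An exact two-sided permutation test gave p = 0.2, the smallest value that 3 against 2 libraries allow. With any 1 library left out the difference was 0.80 to 1.01.

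Marker genes of several cell types differed between the same libraries. In bulk tissue, fewer cells of a type and less RNA per cell cannot be told apart. Of 14 proliferation genes 12 fell and 0 rose, and their summed level was 43.2, 43.2 and 41.8 CPM in Yy1 cKO and 149 and 127 CPM in controls. Mki67, which marks dividing cells, stood at 2.06, 1.26 and 0.752 CPM in Yy1 cKO and at 37.6 and 29.1 CPM in controls. Of 11 genes of granule cell precursors and young granule neurons 10 fell, with sums of 1029, 1078 and 1016 CPM in Yy1 cKO and 1820 and 1760 CPM in controls. Atoh1, the defining factor of the precursors, had 0, 1 and 0 counts in Yy1 cKO and 16 and 19 in controls. Of 8 mature granule neuron genes 7 rose, with sums of 5407, 5449 and 5024 CPM in Yy1 cKO and 3857 and 3859 CPM in controls. Of 7 oligodendrocyte precursor genes 6 fell, with sums of 197, 199 and 218 CPM in Yy1 cKO and 289 and 306 CPM in controls, and of 6 endothelial genes 4 fell and 1 rose, with sums of 112, 112 and 107 CPM in Yy1 cKO and 143 and 156 CPM in controls. Purkinje cell genes gave sums of 6611, 6681 and 5796 CPM in Yy1 cKO and 4967 and 5078 CPM in controls, with 3 of 12 called, all higher. Erythroid genes rose in 4 of 5 cases, with sums of 594, 961 and 951 CPM in Yy1 cKO and 262 and 302 CPM in controls. Molecular layer interneuron genes rose in 5 of 8 cases, astrocyte and Bergmann glia genes rose in 3 and fell in 1 of 8, mature oligodendrocyte genes rose in 1 and fell in 1 of 7, and microglial genes were called in 0 of 5. None of these lists had a gene at 0 in all libraries, and their part in the differences of the Polycomb and INO80 genes was not tested.

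**Figure D2:**
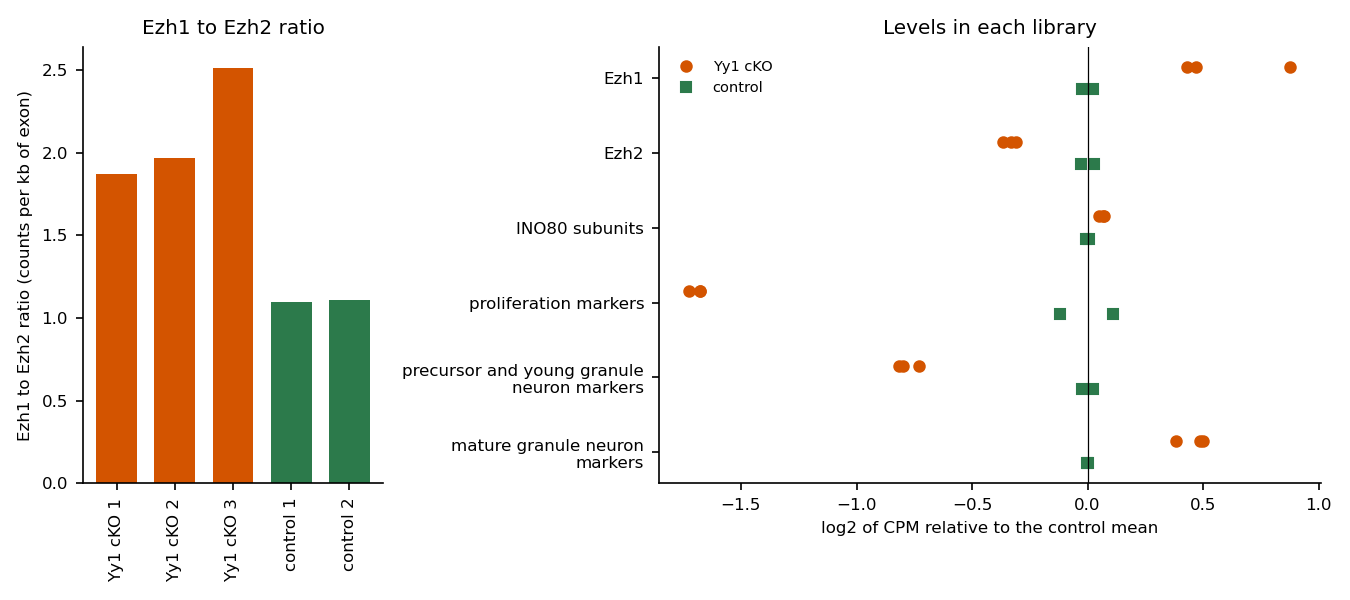
Left, the ratio of Ezh1 to Ezh2 per kb of exon in each library (bars). Right, the level of Ezh1, Ezh2 and 4 summed lists in each library (points) as log2 of CPM relative to the control mean; Ezh1 and the mature granule neuron sum lie to the right in all 3 Yy1 cKO libraries, Ezh2, the proliferation sum and the precursor sum lie to the left, and the INO80 sum lies close to the controls.

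The scaffold subunits of PRC2 were not called. Suz12, which holds the complex together, stood at 75.5, 73.0 and 73.1 CPM in Yy1 cKO and at 68.6 and 71.4 CPM in controls (log2 fold change 0.08 ± 0.0586, adjusted p = 0.386). Eed, the reader of trimethylated lysine 27, stood at 23.5, 24.7 and 26.8 CPM in Yy1 cKO and at 23.3 and 24.1 CPM in controls (0.07 ± 0.0949, adjusted p = 0.628). Accessory subunits distinguish PRC2.1, which contains PHF1, MTF2 or PHF19, from PRC2.2, which contains JARID2 and AEBP2. Jarid2 stood at 160, 164 and 160 CPM in Yy1 cKO and at 202 and 200 CPM in controls. It fell, and every Yy1 cKO library was below both controls (log2 fold change −0.32 ± 0.0503, adjusted p = 0.00162). Its PRC2.2 partner Aebp2 went the other way in value, at 98.4, 96.7 and 95.2 CPM in Yy1 cKO and 90.8 and 81.9 CPM in controls, and was not called (0.16 ± 0.0634, adjusted p = 0.0927). Without control 2 its log2 fold change was 0.09 (adjusted p = 0.521), scaled by library size it was 0.09 (0.375), and it passed without Yy1 cKO library 3 (0.18, adjusted p = 0.0339). Among the PRC2.1 subunits, Phf1 stood at 23.4, 21.8 and 22.9 CPM in Yy1 cKO and at 14.9 and 15.6 CPM in controls, and it rose 1.49-fold (log2 fold change 0.57 ± 0.0959, adjusted p = 0.00231). Of the exonic bases of Phf1 39.3% overlap Cuta on the opposite strand, and since the strand setting of the counting is not given in the sources used here, its value is uncertain. Mtf2 stood at 60.3, 57.9 and 66.0 CPM in Yy1 cKO and at 62.4 and 59.5 CPM in controls, overlapping groups (adjusted p = 0.94). Phf19 had few reads and uneven libraries, at 2.11, 0.876 and 0.859 CPM in Yy1 cKO and 2.26 and 1.84 CPM in controls (−0.66 ± 0.401, adjusted p = 0.279), and it passed without Yy1 cKO library 1 (−1.23, adjusted p = 0.037) but not without library 2 or 3 (−0.45 and −0.44, adjusted p = 0.52 and 0.411).

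PRC1 had 9 called genes, 3 higher and 6 lower of 17 tested (52.9%, against 23.4% of all genes). Its catalytic pair had 1 called gene. Rnf2, also named Ring1b and the main H2A ubiquitin ligase of many cells, stood at 34.2, 33.2 and 34.8 CPM in Yy1 cKO and at 41.0 and 47.5 CPM in controls. It fell to 0.77 of the control level (log2 fold change −0.38 ± 0.0828, adjusted p = 0.00944), and without control 2 the adjusted p was 0.151. Ring1 stood at 17.9, 20.1 and 21.7 CPM in Yy1 cKO and at 13.6 and 16.7 CPM in controls. Its groups did not overlap, but it missed the threshold narrowly (0.39 ± 0.127, adjusted p = 0.0505), and leaving out 1 library at a time moved it both ways. Without control 1 the log2 fold change was 0.25 (adjusted p = 0.354), without Yy1 cKO library 2 it was 0.39 (0.114), and without Yy1 cKO library 1 it was 0.47 and passed (0.0432). The ratio of Ring1 to Rnf2 per kilobase was 0.665, 0.773 and 0.793 in Yy1 cKO and 0.424 and 0.447 in controls, so Rnf2 stayed the higher of the pair in every library. Ratios other than that of Ezh1 to Ezh2 were chosen after the values had been seen and carry no test.

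PCGF proteins pair with the RING subunit and define the class of PRC1. Pcgf5, of a variant PRC1 class, stood at 21.8, 21.3 and 24.1 CPM in Yy1 cKO and at 12.2 and 12.8 CPM in controls. It rose 1.79-fold (log2 fold change 0.84 ± 0.105, adjusted p = 4.33e-04), with all Yy1 cKO libraries well above both controls. Bmi1, the PCGF4 subunit of canonical PRC1 and a gene needed for growth of granule cell precursors in the mouse, stood at 52.2, 53.4 and 51.7 CPM in Yy1 cKO and at 67.1 and 71.7 CPM in controls. It fell to 0.756 of the control level (−0.40 ± 0.0621, adjusted p = 0.00143), with the Yy1 cKO libraries close together and below both controls. Pcgf3, the nearest relative of Pcgf5, moved against it, at 54.4, 60.3 and 58.7 CPM in Yy1 cKO and 73.3 and 69.3 CPM in controls (−0.30 ± 0.0674, adjusted p = 0.01), a call lost without control 1 (0.126), control 2 (0.0569) or Yy1 cKO library 1 (0.0504). The other 3 PCGF genes were not called. Pcgf2, the second canonical PCGF gene, stood at 19.3, 19.8 and 24.7 CPM in Yy1 cKO and at 24.7 and 23.1 CPM in controls (adjusted p = 0.369), and without Yy1 cKO library 3, whose value was that of control 1, it passed (log2 fold change −0.29, adjusted p = 0.029), while without Yy1 cKO library 1 the value was −0.10 (0.663). Pcgf1 and Pcgf6, of variant PRC1, had log2 fold changes of 0.27 ± 0.13 and 0.28 ± 0.105 (adjusted p = 0.166 and 0.0879). Per kilobase, the ratio of Pcgf5 to Bmi1 was 0.131, 0.125 and 0.147 in Yy1 cKO and 0.0572 and 0.0560 in controls.

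**Figure D3:**
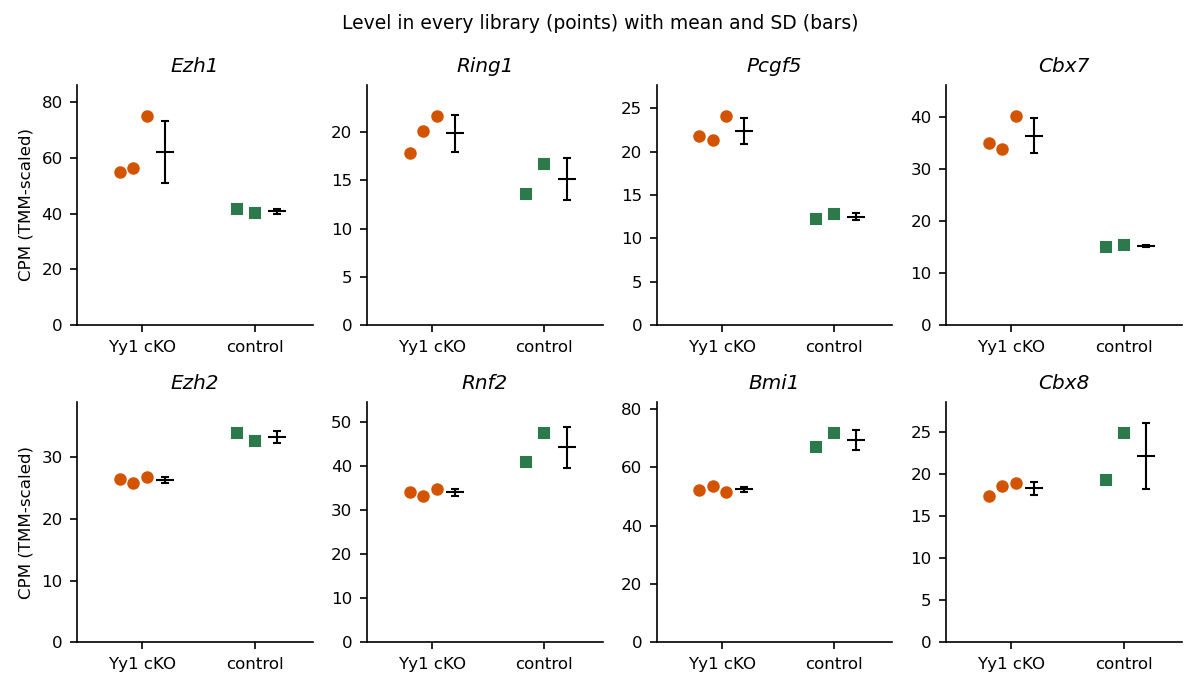
Level of 4 pairs of paralogues in each library (points; vertical axis in TMM-scaled CPM from 0) with the mean and SD of each group (bars), Yy1 cKO left of control. Ezh1, Ring1, Pcgf5 and Cbx7 in the upper row lie higher in all 3 Yy1 cKO libraries than in both controls, and Ezh2, Rnf2, Bmi1 and Cbx8 in the lower row lie lower; the differences of Ring1 and Cbx8 were not called.

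The CBX subunits carry the chromodomain that lets canonical PRC1 bind trimethylated lysine 27. Cbx7 had the largest rise of all members, with 35.0, 33.9 and 40.2 CPM in Yy1 cKO and 15.1 and 15.4 CPM in controls (2.39-fold, log2 fold change 1.26 ± 0.103, adjusted p = 3.7e-05). The Yy1 cKO libraries were far above both controls, and the call held whichever library was left out. Cbx6, the highest of the 4 per kilobase, had 364, 389 and 340 CPM in Yy1 cKO and 273 and 276 CPM in controls, and rose 1.33-fold (0.41 ± 0.0686, adjusted p = 0.00232). Of the exonic bases of Cbx6 5.3% overlap the protein-coding gene Npcd on the same strand, and how shared reads were counted is not given. Cbx6 (GRCm38 chr15:79823896-79834688) and Cbx7 (chr15:79915807-79971119) are neighbours on chromosome 15. Cbx2 and Cbx8 lay lower in all 3 Yy1 cKO libraries than in both controls but were not called. Cbx2 stood at 6.84, 7.17 and 5.96 CPM in Yy1 cKO and at 8.38 and 8.03 CPM in controls (−0.30 ± 0.141, adjusted p = 0.16). Cbx8 stood at 17.4, 18.6 and 18.8 CPM in Yy1 cKO and at 19.3 and 24.8 CPM in controls (−0.27 ± 0.12, adjusted p = 0.139). Per kilobase, Cbx7 was 1.14, 1.04 and 1.21 times the level of Cbx8 in Yy1 cKO and 0.443 and 0.351 times in controls, so the order of these paralogues differed between the groups. Cbx7 made up 12.1 ± 1.59% of the summed level of Cbx2, Cbx6, Cbx7 and Cbx8 in Yy1 cKO and 6.50 ± 0.133% in controls (SD), while Cbx6 made up 73.8 ± 2.02% in Yy1 cKO and 71.6 ± 1.90% in controls.

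**Figure D4:**
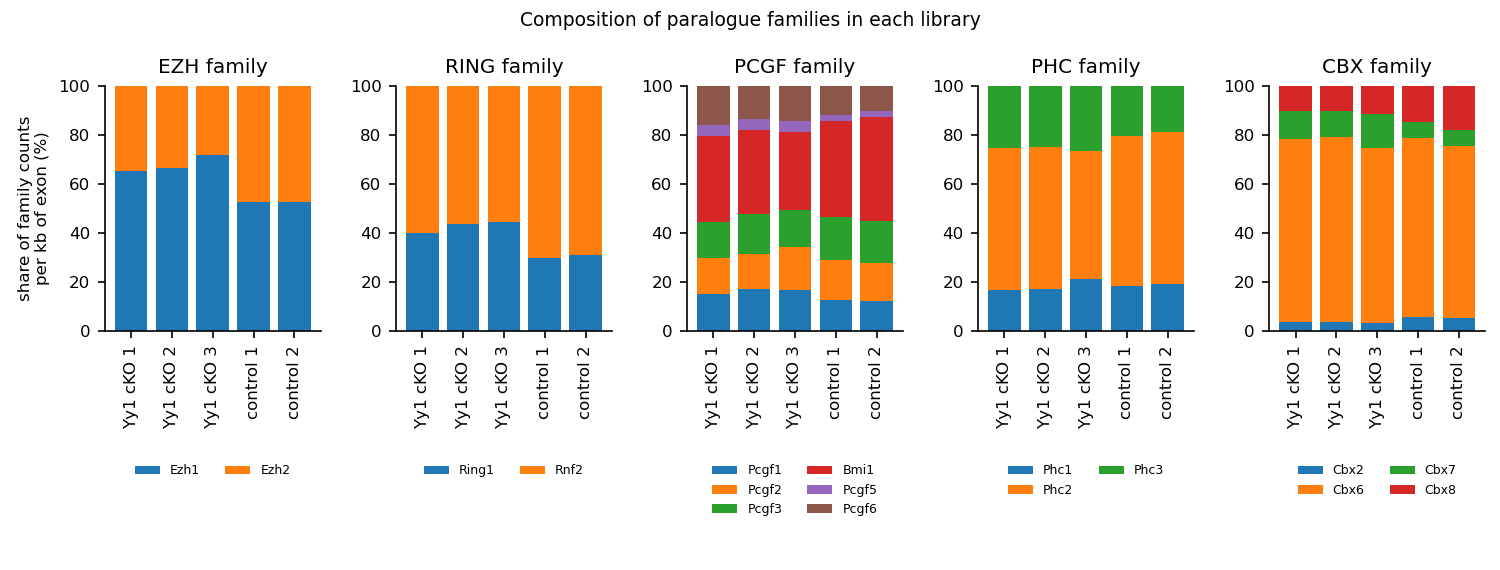
Share of each paralogue in the summed level of its family per library (stacked bars, vertical axis in percent of counts per kb of exon), Yy1 cKO left of control. Ezh1, Ring1, Pcgf1, Pcgf5, Pcgf6, Phc3 and Cbx7 take larger shares in every Yy1 cKO library than in both controls. Ring1, for example, has 42.6 ± 2.31% against 30.3 ± 0.788% in controls, and Pcgf5 has 4.5% against 2.3%.

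Polyhomeotic proteins (PHC) polymerise through their SAM domain and gather canonical PRC1 into clusters. Phc2 stood at 152, 159 and 129 CPM in Yy1 cKO and at 196 and 194 CPM in controls. It fell (log2 fold change −0.41 ± 0.085, adjusted p = 0.00902), with Yy1 cKO library 3 lowest, and the adjusted p was 0.0788 and 0.0681 without control 1 or control 2. Without Yy1 cKO library 3 the log2 fold change of Phc2 was −0.32 (adjusted p = 5.32e-05). Phc1 stood at 32.2, 35.3 and 39.3 CPM in Yy1 cKO and at 43.0 and 44.2 CPM in controls (−0.29 ± 0.0908, adjusted p = 0.0435). This was a marginal call, with an adjusted p of 0.149 and 0.118 without Yy1 cKO library 1 or 2, of 0.155 and 0.232 without control 1 or 2, and of 0.0928 in DESeq2. Leaving out Yy1 cKO library 3 kept the Phc1 call, with a log2 fold change of −0.37 (adjusted p = 9.93e-04). Phc3 was not called, at 164, 170 and 162 CPM in Yy1 cKO and 161 and 148 CPM in controls (0.10 ± 0.0582, adjusted p = 0.265). RYBP and YAF2 are alternative subunits of variant PRC1, and both were first known as partners of YY1. Rybp stood at 45.7, 46.1 and 46.5 CPM in Yy1 cKO and at 54.8 and 59.3 CPM in controls, and it fell (−0.31 ± 0.0652, adjusted p = 0.00813), a call lost without control 2 (0.136). Yaf2 stood at 32.2, 33.9 and 31.9 CPM in Yy1 cKO and at 35.6 and 34.9 CPM in controls (−0.11 ± 0.0763, adjusted p = 0.343). Rybp has a processed pseudogene, Rybp-ps, with 4.78, 5.53 and 3.49 CPM in Yy1 cKO and 6.07 and 6.75 CPM in controls, so its reads can be split between copies.

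The MBT domain proteins read lower methylation states of histone lysines, and SFMBT1 and SFMBT2 are the mammalian relatives of Drosophila dSfmbt, the partner of Pleiohomeotic. Of the 4 genes 3 were called (75%, against 23.4% of all genes). Mbtd1 stood at 61.5, 58.7 and 65.3 CPM in Yy1 cKO and at 77.5 and 74.9 CPM in controls (log2 fold change −0.30 ± 0.0654, adjusted p = 0.00892). It fell, and the adjusted p was 0.106 and 0.0643 without control 1 or control 2. The SFMBT paralogues changed in opposite directions by small amounts. Sfmbt1 rose, with 50.9, 53.4 and 54.2 CPM in Yy1 cKO and 44.8 and 44.9 CPM in controls (0.24 ± 0.0648, adjusted p = 0.0265). Sfmbt2 fell, with 11.8, 11.0 and 10.8 CPM in Yy1 cKO and 13.8 and 14.6 CPM in controls (−0.34 ± 0.107, adjusted p = 0.0457). Neither call held in every setting. The Sfmbt2 call was lost without any single library, at an adjusted p of 0.0643 to 0.25, and in DESeq2 (0.166). The Sfmbt1 call was lost without Yy1 cKO library 1 or 2 (0.0576 and 0.0827), without either control (0.164 each), when scaled by library size (0.114) and in DESeq2 (0.0658). L3mbtl2, a subunit of the variant PRC1 that contains PCGF6, was close in the groups, with 22.0, 23.5 and 21.3 CPM in Yy1 cKO and 22.5 and 22.4 CPM in controls (adjusted p = 0.962). Of its exonic bases 17.2% overlap Chadl on the opposite strand.

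The 13 listed INO80 genes differed little. The INO80 complex slides nucleosomes and exchanges histone H2A.Z, and YY1 is one of its metazoan partners. Of 13 genes 1 was called (7.69%, against 23.4% of all genes). The summed level of these 13 genes was 442, 441 and 437 CPM in Yy1 cKO and 420 and 424 CPM in controls. The called gene was Ino80, the ATPase that drives remodelling, with 69.9, 65.6 and 64.1 CPM in Yy1 cKO and 54.0 and 57.1 CPM in controls. It rose 1.20-fold (log2 fold change 0.26 ± 0.0663, adjusted p = 0.019), and the adjusted p was 0.188 and 0.0842 without control 1 or control 2, 0.086 without Yy1 cKO library 1 and 0.0745 when scaled by library size. The AAA ATPases Ruvbl1 and Ruvbl2, which form the hexamer shared with the SRCAP and TIP60 complexes, overlapped between the groups. Ruvbl1 stood at 7.55, 8.38 and 8.75 CPM in Yy1 cKO and at 7.74 and 8.37 CPM in controls (0.03 ± 0.133, adjusted p = 0.901), and Ruvbl2 stood at 16.0, 19.2 and 17.7 CPM in Yy1 cKO and at 18.1 and 19.4 CPM in controls (−0.09 ± 0.11, adjusted p = 0.618). Uchl5, a deubiquitinase that INO80 shares with the proteasome, had the largest value among the uncalled subunits, with 13.0, 15.4 and 15.0 CPM in Yy1 cKO and 12.7 and 10.5 CPM in controls (0.32 ± 0.129, adjusted p = 0.106). Mcrs1 stood at 31.1, 32.5 and 29.3 CPM in Yy1 cKO and at 35.6 and 36.0 CPM in controls (−0.21 ± 0.0808, adjusted p = 0.0921), and it was called lower when scaled by library size (0.0259). The actin-related subunit genes Actr5 and Actr8 had log2 fold changes of 0.16 and 0.15 (adjusted p = 0.483 and 0.127). Ino80b, Ino80c, Ino80d, Ino80e, Nfrkb and Tfpt lay between −0.07 and 0.12, with adjusted p of 0.483 to 0.897. Of the exonic bases of Ino80e 14.4% overlap Doc2a on the opposite strand. Actb and Actl6a, from a further list of INO80 and actin-related genes, are not in the sum above. Actb was called lower, with a mean of 1160 CPM in Yy1 cKO and 1610 CPM in controls. Actl6a was not called (log2 fold change −0.29, adjusted p = 0.0826).

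The remaining partners of YY1 were close in the groups, and none of the 4 was called. Bap1, the deubiquitinase that removes the mark set by PRC1, stood at 85.6, 87.6 and 90.7 CPM in Yy1 cKO and at 84.5 and 86.9 CPM in controls (log2 fold change 0.04 ± 0.058, adjusted p = 0.698). Hcfc1, the host cell factor that bridges BAP1 and YY1, stood at 157, 157 and 153 CPM in Yy1 cKO and at 154 and 157 CPM in controls (0.00 ± 0.0516, adjusted p = 0.969). Ctcf, an architectural factor that like YY1 is found at the bases of chromatin loops, stood at 84.3, 87.4 and 85.8 CPM in Yy1 cKO and at 82.0 and 79.4 CPM in controls (0.09 ± 0.0569, adjusted p = 0.306). Rad21, the kleisin subunit of cohesin, stood at 141, 138 and 153 CPM in Yy1 cKO and at 133 and 137 CPM in controls (0.09 ± 0.0618, adjusted p = 0.318). Rad21 and Ctcf lay slightly higher in all 3 Yy1 cKO libraries than in both controls, while Bap1 and Hcfc1 overlapped. Such a separation without a call is not evidence of a change.

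Other genes of these pathways, taken from 7 lists without the Hox genes, gave 4 higher and 10 lower of 64 tested (21.9%, against 23.4% of all genes). Those with the smallest p belonged to Polycomb. Epop, which links PRC2 to elongin in mouse embryonic stem cells, stood at 3.62, 3.28 and 3.17 CPM in Yy1 cKO and at 7.84 and 8.37 CPM in controls, and it fell (log2 fold change −1.27 ± 0.157, adjusted p = 4.19e-04). Asxl3, a partner of BAP1, stood at 22.4, 18.6 and 22.8 CPM in Yy1 cKO and at 44.5 and 36.9 CPM in controls (−0.94 ± 0.117, adjusted p = 4.62e-04). Kdm2b, which brings variant PRC1 to unmethylated CpG islands, stood at 49.2, 51.1 and 48.2 CPM in Yy1 cKO and at 71.9 and 67.9 CPM in controls (−0.50 ± 0.0632, adjusted p = 4.81e-04). These 3 falls were called whichever library was left out, as was that of Actb, whose product is a subunit of INO80 as well as of the cytoskeleton (−0.47 ± 0.0703, adjusted p = 0.0012). The canonical PRC1 gene Scmh1 also fell (−0.43 ± 0.0716, adjusted p = 0.00233), though not without control 1 (0.0524). The other called genes of the BAP1 list were Mbd6 (−0.30, adjusted p = 0.00671) and Kdm1b, a histone H3 lysine demethylase (−0.40, adjusted p = 0.0134). Both fell. Mbd6 lost its call without control 1 or 2 (0.0659 and 0.0829), and Kdm1b without control 1 or 2 (0.0627 and 0.119) or without Yy1 cKO library 1 or 2 (0.053 and 0.0506).

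Among the other H3K27 genes Kdm6b, a demethylase of that residue, fell (log2 fold change −0.32 ± 0.0594, adjusted p = 0.00431), as did the PRC2 core gene Rbbp4 (−0.24 ± 0.0543, adjusted p = 0.0104). Both calls were lost without control 2 (0.0648 for Kdm6b and 0.133 for Rbbp4), and that of Rbbp4 also without control 1 (0.0606). The X-linked demethylase gene Kdm6a, which escapes X inactivation, stood at 107, 112 and 83.4 CPM in Yy1 cKO and at 82.0 and 113 CPM in controls, with the low value of each group in the library that had Xist near 0. In variant PRC1, Max and Usp7 rose (0.34 and 0.20, adjusted p = 0.00601 and 0.0207) and Cbx3 fell (−0.29, adjusted p = 0.00479). Each of these calls was lost without at least 1 control, at an adjusted p of 0.104 for Max without control 1, 0.0701 for Cbx3 without control 2, and 0.124 and 0.18 for Usp7 without control 1 or 2. Usp7 also lost it without Yy1 cKO library 1 (0.0765). The SRCAP and TIP60 remodellers, relatives of INO80, were called in 0 of 16 cases, between −0.25 and 0.23, and of 9 other cohesin genes Mau2 alone was called (0.27, adjusted p = 0.0177; 0.154 and 0.105 without control 1 or 2). Hox cluster genes, classical targets of Polycomb repression, had 1, 4 and 6 counts in sum over 39 genes in Yy1 cKO and 5 and 5 in controls. Of them 31 had 0 counts in all libraries and none passed the filter.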

How the data were processed

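Per the labels' protocols, total RNA was extracted with TRIzol, depleted of ribosomal RNA and made into strand-specific libraries. The submitters' processing notes name the build GRCm38 and the tools STAR 2.7.1a, featureCounts, FastQC 0.11.8, Trimmomatic 0.39 and DESeq2 1.26.0. Whether strand was used in counting, and how multi-mapped reads were counted, is not given in the sources used here. The values used are the deposited raw read counts per gene, as whole numbers. A second deposited table, these counts divided by 1 constant per library, was not used. GENCODE M21 gave symbols, positions and exon lengths; 54587 identifiers matched with their version, 567 without it, and 267 did not match.

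Groups came from the sample titles. Chi-square per gene was 3.51 to 16.7 between libraries of a group and 34.1 to 41.5 between groups, so none was a copy of another. The main test was edgeR 4.0.16 quasi-likelihood in R 4.3.3 with TMM scaling, filterByExpr, robust dispersion and no covariate, fitted on 20388 genes, with Benjamini-Hochberg adjustment over all of them and a threshold of 0.05. The common biological coefficient of variation was 10.5%. The standard error of a log2 fold change is its size divided by the root of its F statistic. Simulated counts with known changes were used to check the test. In them 200 genes were changed, far fewer than the 4762 called in the data. The spread of a simulated gene followed from its level alone. The simulated rates therefore do not carry over to the members. It recovered 28 of 67 changes of 1.5-fold (41.8%), 50 of 64 of 2-fold (78.1%) and 61 of 63 of 4-fold (96.8%), with 1 false call. Small changes can be missed, and a gene that was not called is not shown to be unchanged.

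The members and lists were chosen with earlier results of these data known. All called members, the paralogue pairs and Ino80 are given per library, and of each further list up to 4 called genes by smallest p. Some uncalled members are also given per library, a choice made after their values were seen. Alternatives were other scalings and filters, DESeq2 1.42.0, limma-voom (limma 3.58.1), no robust dispersion, the replicate number as a block, Xist as a covariate, a threshold of 0.01, and leaving out each library. Some values of the further lists are not reported here.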

Additional observations from a re-analysis of the deposited data

How the results depend on the processing

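The number of controls, 2, limits these results, and genes with few reads such as Phf19 have wide errors. At an adjusted p under 0.01, 1095 genes were higher and 1453 lower, and 4 members were higher and 6 lower. Scaling by library size gave 1432 higher genes. Leaving out each library in turn gave 887 to 2990 higher and 1267 to 3127 lower genes, and 4 to 8 higher and 2 to 10 lower members. The lowest counts came without a control. Without control 1 there were 920 higher and 1267 lower genes, and without control 2 there were 887 and 1300. The replicate numbers are shared by name alone, since deviations of same-numbered libraries correlated at 0.0387 and 0.0323. With the replicate block 3486 genes were higher and 3575 lower, and 10 members were higher and 12 lower. DESeq2 called 1861 genes higher and 1957 lower, and 6 members higher and 8 lower. The difference in the log2 ratio of Ezh1 to Ezh2 stayed between 0.80 and 1.01 in every alternative run, of which a change of exon length cannot move it by construction. Of the 17 called members 13 kept their call in all settings that used every library at a threshold of 0.05, and 7 members without a call passed in at least 1 other setting. Where a direction held but a call did not, the cause was not tested.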
